A study of Mus musculus with 11 samples.

Results

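Gene expression in mouse neural stem cells was compared before and after a switch to a serum-containing astrocyte medium, using 6 of the 11 libraries of the series. The members are the genes with at least 1 CPM (counts per 1000000, a read count scaled to library size) in at least 2 of these 6 libraries, which were 12997 of the 37991 genes in the table. The NSC group (3 libraries) held proliferating stem cells from the frontal cortex of C57BL/6J embryos of embryonic day E14.5, collected at day 0 from expansion medium. The Astrocyte group (3 libraries) held cells of the same origin and strain, with no genetic change named. These had reached 70% confluency and were then kept for 4 days in DMEM containing 1% fetal bovine serum and 1% of the N-2 supplement, renewed every 48 hours. Day 4 cultures in neuron medium (Neurobasal with 2% B-27, 3 libraries) and oligodendrocyte medium (the same with T3 at 30 ng/mL, 2 libraries) entered the same fit and were used where a difference between media was tested. Group names state the medium a culture received and not which cells it held, and no sort or gate was named. The serum, the loss of the expansion medium and the 4 days changed together between NSC and Astrocyte and cannot be told apart.

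Neural stem cells kept in growth factors divide and express nestin and other radial glial genes. Astrocytes arise from such cells when cytokines of the interleukin-6 family, acting through JAK and STAT3, and bone morphogenetic proteins (BMPs) turn on glial genes such as Gfap, the astrocyte intermediate filament. Mature astrocytes take up glutamate and potassium, move water, store glycogen and secrete lipoproteins, and in culture with serum they often also show genes of the reactive, injury-associated state.

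Libraries of a group were close to each other. Estimated depth was 57.4 to 59.4 M (mega) reads in NSC and 59.2 to 66.2 M in Astrocyte. Pearson correlations across genes, which are not independent replicates, were 0.995 to 0.999 within a group and 0.799 to 0.802 between the groups. Genes of the mitochondrial genome held 4.54% to 4.71% of the CPM scale in NSC and 6.6% to 7.93% in Astrocyte. The labels named no batch or date and did not say whether replicates were separate cultures, so the p-values measure only the spread between these libraries, which may be technical. All fold changes are on the log2(CPM + 1) scale, which understates changes of low genes.

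Most of the transcriptome moved. At a Benjamini-Hochberg (BH) adjusted p under 0.05 in limma, 10931 genes (84.1% of those tested) were called. Of all genes tested, 6203 (47.7%) rose and 4728 (36.4%) fell. Counts of list members given below stand against these shares. A change of at least 2-fold was called for 4498 genes (34.6%), 2861 of them higher (22.0%) and 1637 lower (12.6%). The 3 Astrocyte values did not overlap the 3 NSC values for 11242 genes (86.5%). The median change over all genes tested was 0.14, against 0.01 after median-of-ratios scaling and -0.03 after quantile normalization. Of the larger changes, 379 genes rose and 240 fell by at least 8-fold, and 15 rose and 2 fell by at least 64-fold. The balance depended on the scaling, since 63.6% of the 2-fold calls were higher as deposited, 56.5% after median-of-ratios scaling and 50.2% after quantile normalization.

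**Figure D1:**
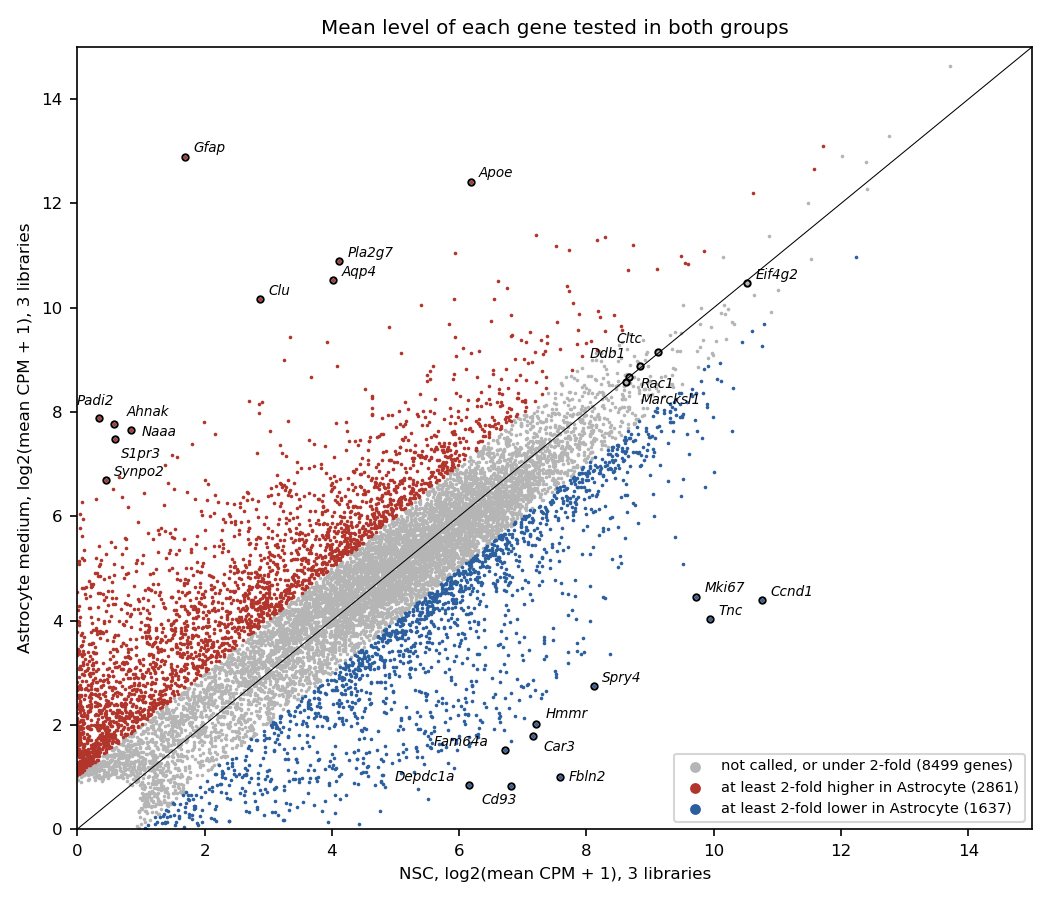
Mean level of each of the 12997 genes tested in NSC (x axis) and Astrocyte (y axis), both on the log2(CPM + 1) scale over 3 libraries each. Red points were called at least 2-fold higher (2861) and blue points at least 2-fold lower (1637), and named genes are labelled, with Gfap farthest above the diagonal.

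Gfap showed the largest rise of the named genes. Its level was 2.08, 2.63 and 1.94 CPM in the NSC libraries and 8707, 7157 and 7030 CPM in the Astrocyte libraries. The groups did not overlap, and the log2 fold change was 11.21 (SE 0.099, limma BH-adjusted p = 1.36e-16). Gfap lies at chr11:102748650-102762226 in the mm9 build of the files. In bulk RNA, fewer cells of a type and less RNA per cell cannot be told apart, and the same holds for more of either.

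Padi2, an enzyme that converts arginine to citrulline in proteins, was at 0.19, 0.40 and 0.22 CPM in NSC and 221, 267 and 221 CPM in Astrocyte. It rose by 7.54 (SE 0.090, adjusted p = 1.65e-15). Aqp4, the water channel of astrocyte endfeet, was at 14.6, 15.2 and 15.8 CPM in NSC and 1444, 1444 and 1550 CPM in Astrocyte, a rise of 6.52 (SE 0.073, adjusted p = 8.80e-16). Neither gene overlapped between the groups. Both had been given, with Gfap, as markers of these cultures with earlier results known, so their direction is no independent evidence.

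Other genes among the 10 largest rises code for secreted and lipid-handling proteins. Clu, the apolipoprotein and chaperone clusterin, was at 5.54 to 7.01 CPM in NSC and 1059 to 1212 CPM in Astrocyte (log2 fold change 7.29, SE 0.103). Apoe, the main apolipoprotein of astrocytes, had 69.5, 66.8 and 78.8 CPM against 5224, 5541 and 5667 CPM (6.24, SE 0.109). Pla2g7, the secreted hydrolase of platelet-activating factor, rose by 6.79 (SE 0.091), from 15.3 to 17.9 CPM to 1779 to 2044 CPM. No overlap between the groups was a condition for this set, so it is not a separate result. Also in this set were Ahnak, a giant scaffold protein (7.18), S1pr3, a sphingosine-1-phosphate receptor (6.90), Naaa, a lysosomal amidase (6.81), and Synpo2, an actin-binding protein (6.24). Ahnak stood at 249, 227 and 175 CPM in the Astrocyte libraries.

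With the mitochondrial genome left out, the genes that gained the most CPM were Gfap, Apoe, Scd2, Prdx6 and Ntrk2. Scd2, a desaturase that makes monounsaturated fatty acids, went from 2990 to 3076 CPM in NSC to 6430 to 6560 CPM in Astrocyte, a rise of 1.10 on the log2 scale (SE 0.092, adjusted p = 7.47e-08). Ntrk2, the receptor for the growth factor BDNF, rose by 3.07 (SE 0.073), from 306 to 320 CPM to 2499 to 2780 CPM. Prdx6, an antioxidant peroxiredoxin, was at 141 to 155 CPM in NSC and 2427 to 2901 CPM in Astrocyte (4.20). None of these 3 ranges overlapped.

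**Figure D2:**
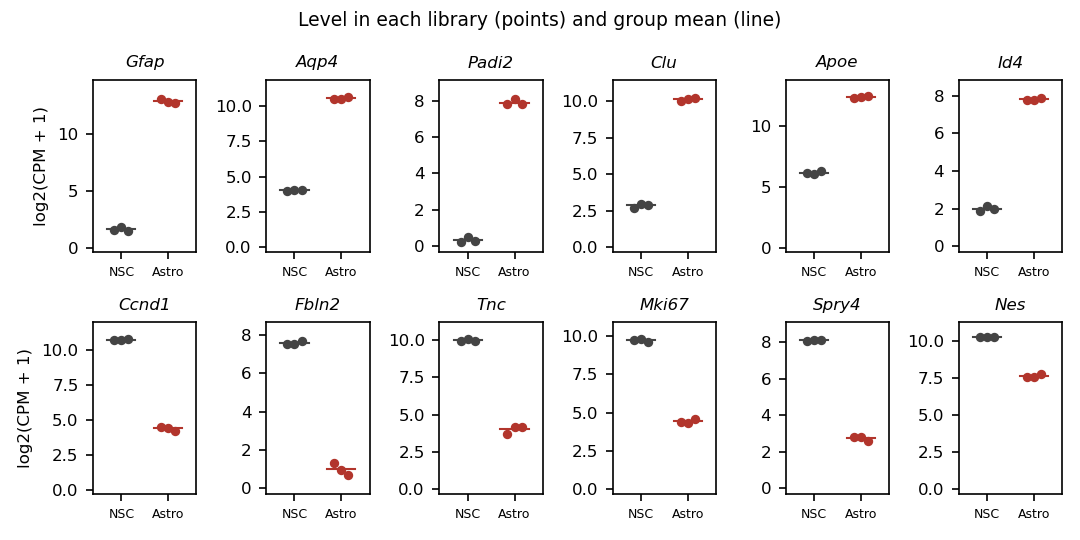
Level of 12 named genes in each of the 3 NSC and 3 Astrocyte libraries, on the log2(CPM + 1) scale (y axis). In every panel the NSC and Astrocyte points lie apart, with Gfap, Aqp4, Padi2, Clu, Apoe and Id4 higher and Ccnd1, Fbln2, Tnc, Mki67, Spry4 and Nes lower in Astrocyte.

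Most listed astrocyte markers rose. Of 25 tested cytoskeletal, enzyme and secreted marker genes, 22 rose and 2 fell, with a median log2 fold change of 3.85 against 0.14 for all genes tested. The falling members were Id3, an inhibitor of helix-loop-helix factors (fell by 1.07), and Chrdl1, a secreted BMP antagonist (fell by 0.97). Aldh1l1, the folate enzyme widely used as a general astrocyte marker, was at 236, 239 and 255 CPM in NSC and 211, 240 and 248 CPM in Astrocyte. The groups overlapped and the gene was not called (log2 fold change -0.07, SE 0.076, adjusted p = 0.421). After median-of-ratios scaling Aldh1l1 was called lower, at -0.21 (adjusted p = 0.0365).

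Of 17 tested transport and junction genes, 15 rose and 2 fell (median 2.04), against 47.7% and 36.4% of all genes. Gja1, the gap junction protein connexin 43, rose by 5.11 (SE 0.073), from 58.4 to 63.5 CPM to 2094 to 2160 CPM. Slc39a12, a zinc transporter, rose by 5.21 and Slc14a1, a urea transporter, by 5.05. Among the falling members, Slc6a11, the transporter GAT-3 that takes up the transmitter GABA, had 338, 343 and 369 CPM in NSC and 138, 112 and 109 CPM in Astrocyte, without overlap, and fell by 1.55 (SE 0.090, adjusted p = 1.49e-09).

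Receptors and factors of the gliogenic pathways changed in both directions. Of 20 tested gliogenic transcription factors and JAK-STAT genes, 15 rose and 4 fell (median 1.30), against 47.7% and 36.4% of all genes. The oncostatin M receptor Osmr was at 0.74, 0.73 and 0.76 CPM in NSC and 75.3, 71.7 and 67.4 CPM in Astrocyte, and rose by 5.38 (SE 0.073, adjusted p = 2.60e-15). Il6st (gp130), the signalling subunit shared by that cytokine family, rose by 2.81 (SE 0.072), from 55.3 to 64.3 CPM to 404 to 436 CPM. Lifr, which pairs with gp130 for leukemia inhibitory factor, went the other way. It had 74.3, 73.8 and 63.2 CPM in NSC and 31.9, 33.5 and 26.6 CPM in Astrocyte (fell by 1.18, SE 0.094, adjusted p = 4.56e-08).

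Among the transcription factors, Hopx, a homeodomain-only protein, rose by 3.27 (SE 0.102) and Zbtb20, a zinc finger factor of astrocyte formation, by 3.15 (SE 0.285). Zbtb20 was uneven, at 66.8, 77.5 and 38.7 CPM in NSC and 615, 600 and 396 CPM in Astrocyte. Replicate 3 was the lowest of its group on both sides, and without both of these libraries the Zbtb20 rise was 3.06. Nfib, a nuclear factor I gene of glial commitment, fell by 0.89 (SE 0.059), from 341 to 379 CPM to 189 to 202 CPM. Rfx4, a transcription factor of neural patterning, fell by 0.84 (SE 0.063).

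Of 16 tested BMP and TGF-beta genes, 12 rose and 3 fell (median 1.44), against 47.7% and 36.4% of all genes. The ligand Bmp6 was at 0.080, 0.050 and 0.020 CPM in NSC and 22.0, 23.4 and 25.8 CPM in Astrocyte (log2 fold change 4.55, SE 0.091, adjusted p = 4.91e-14). The ligand Bmp7 moved in the opposite direction, from 42.3, 41.6 and 45.5 CPM to 2.71, 2.58 and 2.73 CPM (fell by 3.59, SE 0.075, adjusted p = 6.97e-14). The groups did not overlap for either ligand. The Id genes, targets of BMP signalling that block helix-loop-helix factors, split as well. Id4 rose by 5.83 (SE 0.081), from 2.63 to 3.35 CPM to 217 to 237 CPM. Id2 rose by 2.67 (SE 0.076), and Id3 fell as given above. The signal transducer gene Smad9 rose by 3.11 (SE 0.086), and Tgfbr2, the type II TGF-beta receptor, fell by 0.94 (SE 0.085).

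In the Notch pathway, 3 of 14 tested genes rose and 9 fell (median -0.59), against 47.7% and 36.4% of all genes. The ligand Jag1 fell by 3.08 (SE 0.143), from 33.8 to 37.1 CPM to 2.96 to 4.23 CPM, and the ligand Dll1 fell by 1.38 (SE 0.078). The receptor Notch2 rose by 1.65 (SE 0.104), from 43.1, 47.5 and 38.5 CPM to 152, 136 and 123 CPM. Targets of the pathway moved apart. Hes1 fell by 1.93 (SE 0.096), from 19.1 to 22.1 CPM to 3.90 to 5.15 CPM, while Hey1 rose by 2.16 (SE 0.059), from 28.1 to 30.9 CPM to 134 to 137 CPM.

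Cell cycle genes fell together. Ccnd1, the cyclin D1 that couples growth factors to G1 entry, had 1713, 1703 and 1782 CPM in NSC and 21.8, 20.7 and 17.8 CPM in Astrocyte. It fell by 6.37 (SE 0.102, adjusted p = 8.41e-15), with no overlap, and lies at chr7:152115836-152125774 in mm9. It was given as a marker with earlier results known. All 26 tested mitosis genes fell, with a median of -4.43 and a range of -5.26 (Mki67) to -3.27 (Anln). The summed level of the mitosis list was 4708 to 4814 CPM in NSC and 172 to 200 CPM in Astrocyte. All 25 tested DNA replication genes fell (median -3.08), from -4.75 for the thymidine kinase Tk1 to -0.39 for Gins4, a subunit of the replicative helicase complex. These counts stand against a background of 36.4% of all genes called lower.

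All 26 tested mitosis genes were without overlap between the groups, against 86.5% of all genes tested. Mki67, the proliferation antigen Ki-67, was at 849, 902 and 784 CPM in NSC and 20.2, 19.4 and 23.5 CPM in Astrocyte (fell by 5.26, SE 0.168). Plk1, the polo-like kinase of mitotic entry, went from 110, 108 and 119 CPM to 2.15, 1.90 and 2.60 CPM and fell by 5.14 (SE 0.120). Ccna2, cyclin A2, fell by 5.00 (SE 0.077), to 8.69 to 10.3 CPM. All 3 genes remained above 1 CPM in every Astrocyte library. Depdc1a, Fam64a and Hmmr, also genes of dividing cells, were among the 10 largest falls at -5.32, -5.22 and -5.19.

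Late cell cycle genes are known to be repressed in resting cells through a short element, the cell cycle genes homology region (CHR), which often stands near CCAAT boxes bound by NF-Y. RefSeq promoter windows (build GRCm38.p6, 250 bases before to 50 after the start) were found for 23 of the 26 mitosis genes and searched on both strands for TTTGAA, the letters of the CHR, and for the box letters CCAAT. The CHR letters were in 17 of the 23 windows (73.9%), against 18.2% of all 27025 windows of that length. The CCAAT box was in 20 (87.0%), against 38.0%, and both were in 16 (69.6%), against 7.2%. Ribosome biogenesis genes, all of which also fell, had the CHR letters in 2 of 18 windows (11.1%) and the CCAAT box in 6 (33.3%). The astrocyte cytoskeletal, enzyme and secreted genes had them in 3 (13.6%) and 8 (36.4%) of 22. A match is a description of letters and not of a bound site.

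For at least 7 of the 23 genes the 150 bases before the start hold both motifs. Genes on a chromosome that was left out of this narrower search are not counted. The 7 stretches are shown so that the order and spacing of the motifs can be read beside the falls. Capitals mark the CHR letters, the CCAAT box or the reverse complement of either, and each stretch runs 5′ to 3′ on the strand of the gene. Positions in GRCm38.p6 are Mki67 at chr7:135716380-135716529 (minus strand), Cdk1 at chr10:69352913-69353062 (minus strand), Top2a at chr11:99024190-99024339 (minus strand), Kif11 at chr19:37376232-37376381 (plus strand), Cdc20 at chr4:118437344-118437493 (minus strand), Ect2 at chr3:27153879-27154028 (minus strand), Ube2c at chr2:164769779-164769928 (plus strand).
Mki67: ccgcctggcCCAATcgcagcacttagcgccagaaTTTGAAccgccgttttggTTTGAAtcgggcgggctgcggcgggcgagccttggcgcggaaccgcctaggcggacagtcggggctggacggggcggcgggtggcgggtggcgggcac
Cdk1: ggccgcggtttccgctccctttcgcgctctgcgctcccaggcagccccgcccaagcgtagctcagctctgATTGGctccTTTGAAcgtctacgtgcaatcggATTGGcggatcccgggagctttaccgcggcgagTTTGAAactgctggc
Top2a: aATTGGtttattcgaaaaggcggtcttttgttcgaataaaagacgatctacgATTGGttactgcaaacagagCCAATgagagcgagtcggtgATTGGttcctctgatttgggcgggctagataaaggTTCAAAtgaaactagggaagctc
Kif11: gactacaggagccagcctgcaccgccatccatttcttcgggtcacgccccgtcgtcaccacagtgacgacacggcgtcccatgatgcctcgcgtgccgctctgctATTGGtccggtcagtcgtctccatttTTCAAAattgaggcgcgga
Cdc20: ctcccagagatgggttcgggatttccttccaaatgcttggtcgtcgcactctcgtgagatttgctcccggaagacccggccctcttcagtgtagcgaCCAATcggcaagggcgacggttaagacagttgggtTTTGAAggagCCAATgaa
Ect2: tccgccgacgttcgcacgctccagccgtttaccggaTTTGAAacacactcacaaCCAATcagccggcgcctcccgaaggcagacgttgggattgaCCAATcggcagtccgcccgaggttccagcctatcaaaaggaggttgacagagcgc
Ube2c: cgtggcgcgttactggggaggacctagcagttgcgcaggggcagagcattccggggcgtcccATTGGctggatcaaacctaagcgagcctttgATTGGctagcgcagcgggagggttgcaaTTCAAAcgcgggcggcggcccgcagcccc

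Cdk1, the mitotic kinase, had 162, 154 and 172 CPM in NSC and 8.02, 8.51 and 10.5 CPM in Astrocyte and fell by 4.04 (SE 0.103). Cdc20, an activator of the anaphase-promoting complex, fell by 4.71 (SE 0.110), and Ube2c, the ubiquitin-conjugating enzyme of that complex, by 4.48 (SE 0.120). Top2a, the topoisomerase that untangles chromosomes, fell by 4.43 (SE 0.125), from 721 to 751 CPM to 31.5 to 34.3 CPM. The motor Kif11 fell by 4.28 and the cytokinesis factor Ect2 by 4.28.

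Around G1, 18 of 23 tested cyclins, kinases and inhibitors fell and 5 rose (median -1.13). The cyclin E gene Ccne2 fell by 4.29 (SE 0.107), from 56.4 to 65.9 CPM to 1.82 to 2.57 CPM, and the activator E2f2 fell by 3.38 (SE 0.123). Among those that rose were the inhibitor Cdkn2b (1.88, SE 0.098), from 6.20 to 6.92 CPM to 24.9 to 28.2 CPM, and the pocket proteins Rbl2 (1.13, SE 0.070) and Rb1 (0.91, SE 0.067). Mycn, a growth-promoting transcription factor, rose from 0.59 to 1.01 CPM to 1.73 to 1.82 CPM (0.65, adjusted p = 9.57e-05), a call that quantile normalization turned to -0.06.

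In the growth factor and ERK list the 3 largest falls, named by that choice, were in feedback genes. Spry4, an inhibitor of receptor tyrosine kinase signalling that ERK induces, was at 273, 275 and 283 CPM in NSC and 6.08, 6.08 and 4.95 CPM in Astrocyte (fell by 5.38, SE 0.089, adjusted p = 1.15e-14). Dusp6, the ERK phosphatase, fell by 4.57 (SE 0.138), from 224 to 261 CPM to 7.63 to 11.7 CPM, and Spry1 fell by 4.23 (SE 0.119). Over the whole list 16 of 21 tested genes fell and 3 rose (median -0.89), against 36.4% and 47.7% of all genes. A fall of at least 2-fold was called for 9 of the 21, against 12.6% of all genes. The 3 that rose were receptors, namely Fgfr2 from 11.2 to 11.8 CPM to 85.6 to 87.5 CPM (2.81, SE 0.056), Pdgfra (1.81, SE 0.112) and Fgfr1 (0.76, SE 0.073).

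All 20 tested ribosome biogenesis genes fell (median -1.53, range -2.27 to -0.77). Nop58 and Nop56, core proteins of the particles that methylate ribosomal RNA, fell by 2.27 (SE 0.058) and 2.10 (SE 0.068), and Gar1, of the pseudouridylation particles, fell by 2.14 (SE 0.091). Of 21 tested chromatin regulators, 12 fell and 5 rose (median -1.0), against 36.4% and 47.7% of all genes. Uhrf1, which brings the maintenance DNA methyltransferase to replicated DNA, fell by 4.54 (SE 0.113), from 203 to 219 CPM to 6.86 to 9.50 CPM, and the remodeler Hells fell by 4.00. Ezh1, a Polycomb methyltransferase of resting cells, rose by 1.74 (SE 0.123), from 4.69 to 5.86 CPM to 17.8 to 23.6 CPM, and the Polycomb reader Cbx7 rose by 1.66 (SE 0.136).

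Stem cell and radial glia genes were divided. Of 19 tested, 10 fell and 8 rose (median -0.34), against 36.4% and 47.7% of all genes. Tnc, the matrix protein tenascin C, fell by 5.93 (SE 0.151), from 953 to 1037 CPM to 12 to 17.2 CPM, and Hmga2, a chromatin protein of young stem cells, fell by 3.06 (SE 0.086). Nes, the intermediate filament nestin, had 1253, 1246 and 1255 CPM in NSC and 189, 189 and 219 CPM in Astrocyte (fell by 2.65, SE 0.080). Prom1, the stem cell surface protein prominin 1, rose by 3.28 (SE 0.084), from 3.19 to 3.78 CPM to 40.0 to 45.9 CPM. Msi1, an RNA-binding protein of neural stem cells, rose by 1.74 (SE 0.085), and Pax6, a radial glial transcription factor, by 1.20 (SE 0.065).

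The nuclear genes that lost the most CPM were Eef1a1, Ccnd1, Fabp7, Nes and Ckb. Eef1a1, translation elongation factor 1 alpha, whose many near-identical copies make its read assignment uncertain, fell by 1.26 (SE 0.089), from 4717 to 4965 CPM to 1944 to 2076 CPM. Fabp7, the brain lipid-binding protein of radial glia, fell by 1.48 (SE 0.104), from 1713, 1549 and 1906 CPM to 589, 596 and 667 CPM. Ckb, brain creatine kinase, fell by 0.60 (SE 0.090). Other large falls were in Cd93, a cell surface lectin-like glycoprotein (-5.98), and Car3, a carbonic anhydrase (-5.40).

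At the other end, 291 genes had a 95% interval of the log2 fold change within 0.2 of 0. Those of highest CPM were the translation factor Eif4g2 (-0.04, SE 0.068), clathrin heavy chain Cltc (0.03, SE 0.078), Ddb1 of the DNA damage ubiquitin ligases (0.04, SE 0.058), Marcksl1 (0.01, SE 0.075) and the small GTPase Rac1 (-0.03, SE 0.066). This holds for the deposited scaling. Eif4g2 was called lower after median-of-ratios scaling (-0.19) and quantile normalization (-0.45), Rac1 lower after the former (-0.18) and Ddb1 higher after the latter (0.18).

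**Figure D3:**
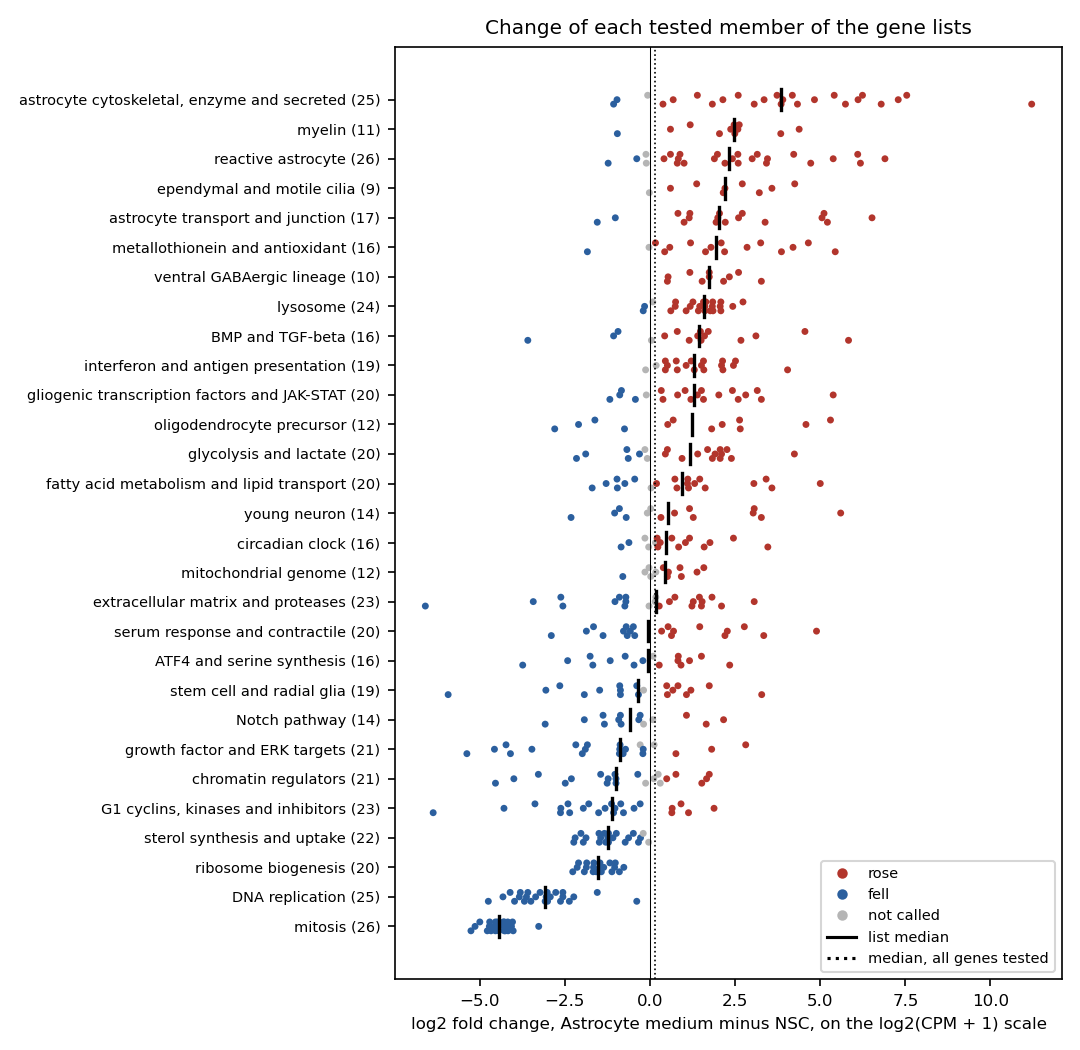
Log2 fold change (Astrocyte minus NSC, x axis, on the log2(CPM + 1) scale) of every tested member of the lists with at least 9 tested genes (y axis). The bar is the list median and the dotted line the median of all genes tested (0.14), and the mitosis list has the lowest median (-4.43) and the astrocyte cytoskeletal, enzyme and secreted list the highest (3.85).

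Genes linked to the reactive state of astrocytes mostly rose. Of 26 tested, 22 rose and 2 fell (median 2.31), and 17 rose and 5 fell after quantile normalization. S1pr3 was at 0.68, 0.42 and 0.40 CPM in NSC and 185, 179 and 170 CPM in Astrocyte (SE 0.094, adjusted p = 2.60e-15). The complement component C4b rose by 6.10 (SE 0.077), from 0.56 to 0.57 CPM to 95.1 to 114 CPM. The C4b mean of 107 CPM in Astrocyte was below the 258 CPM in Neuron (log2 difference -1.27). It was above the 11.4 CPM in Oligodendrocyte (3.12). The complement component C3 was at 0.020, 0.020 and 0.13 CPM in NSC and 66.8, 89.0 and 72.1 CPM in Astrocyte, a rise of 6.18 (SE 0.106). The falling members were B3gnt5, a glycosyltransferase (fell by 1.23), and Timp1, a metalloprotease inhibitor (fell by 0.39). Without NSC replicate 3 the Timp1 value was -0.25 and not called (adjusted p = 0.0592). Cd44, a hyaluronan receptor, lay slightly lower without overlap but was not called (-0.12, adjusted p = 0.0971); it was called lower after median-of-ratios scaling (-0.26) and quantile normalization (-0.16). The iron-binding protein gene Lcn2 was too low to be tested, at 0.29 to 0.38 CPM in Astrocyte.

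Of 19 tested interferon and antigen presentation genes, 17 rose and the other 2 were not called (median 1.30). Ifit3, an interferon-induced antiviral gene, rose by 4.04 (SE 0.123), from 0.10 to 0.20 CPM to 16.7 to 19.7 CPM. Tapbp, which loads peptides on MHC class I, rose by 2.45 (SE 0.088), and Irf9, the DNA-binding subunit of the interferon-activated complex, by 2.14 (SE 0.091). Markers of microglia, which also express such genes, summed over 12 genes to 0.36 to 0.54 CPM in NSC and 0.89 to 1.40 CPM in Astrocyte. P2ry12 was the highest of them in every library, and C1qb, C1qc, Tyrobp and Tmem119 were at 0 in all 6 libraries.

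Of 20 tested serum response and contractile genes, 10 rose and 10 fell (median -0.05), a share of rises near the 47.7% of all genes. Ctgf, a matricellular protein, was at 0.88 to 0.98 CPM in NSC and 74.8, 44.9 and 54.0 CPM in Astrocyte (4.89, SE 0.219). Thbs1, thrombospondin 1, rose by 3.34 (SE 0.131), from 5.00 to 6.88 CPM to 64.9 to 76.3 CPM. The immediate early gene Egr1, itself a serum and ERK target, fell by 2.90 (SE 0.129), from 180, 184 and 217 CPM to 28.4, 25.6 and 21.5 CPM. Zyx, zyxin of focal adhesions, fell by 1.66 (SE 0.077).

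Matrix genes rose in 11 and fell in 9 of 23 tested (median 0.17), near the 47.7% and 36.4% of all genes, so single members are described and not the list. Fbln2, the matrix glycoprotein fibulin 2 given as a marker, had 187, 183 and 204 CPM in NSC and 1.5, 0.92 and 0.62 CPM in Astrocyte. It fell by 6.60 (SE 0.142, adjusted p = 8.50e-14), the largest fall of the named genes, and lies at chr6:91162449-91222534 in mm9. The laminin chain Lamb1 fell by 3.43 (SE 0.107) and the membrane protease Mmp15 by 2.62 (SE 0.071). Timp3, a metalloprotease inhibitor, rose by 3.06 (SE 0.067), from 26.5 to 29.6 CPM to 234 to 264 CPM, and Sparc, a collagen-binding protein, by 2.10 (SE 0.095).

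Most sterol genes fell, while fatty acid and lipid transport genes moved in both directions. Of 22 tested sterol synthesis and uptake genes, 20 fell and the other 2 were not called (median -1.23). Fdps, the farnesyl diphosphate synthase of isoprenoid synthesis, was at 244, 230 and 262 CPM in NSC and 53.4, 47.6 and 57 CPM in Astrocyte (fell by 2.20, SE 0.086, adjusted p = 2.13e-11). Lss, the enzyme of the lanosterol step, fell by 2.03 (SE 0.142). In fatty acid metabolism and lipid transport 13 of 20 tested genes rose and 6 fell (median 0.94), against 47.7% and 36.4% of all genes. Abca1, the exporter that loads cholesterol onto apolipoproteins, rose by 5.00 (SE 0.075), from 11.2 to 12.5 CPM to 373 to 436 CPM. The lipid droplet gene Plin4 rose by 3.05 and the pyruvate dehydrogenase kinase Pdk4 by 3.41. The falling members included the fatty acid synthesis genes Elovl6 (-1.70), Acly (-1.29) and Fasn (-0.97). The desaturase Scd2 (1.10) and the lipogenic Thrsp (3.58) were among those that rose.

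Glycolysis and lactate genes rose in 13 and fell in 5 of 20 tested (median 1.17), against 47.7% and 36.4% of all genes. Isoenzymes moved in opposite directions. Ldha, the lactate dehydrogenase subunit of glycolytic tissue, had 459, 436 and 483 CPM in NSC and 112, 120 and 140 CPM in Astrocyte (fell by 1.89, SE 0.090). Ldhb, the subunit of oxidative tissue, had 89.6, 87.6 and 98.9 CPM and 429, 441 and 462 CPM (rose by 2.26, SE 0.083). The groups did not overlap for either subunit. Hexokinase 2 (Hk2) fell by 2.16 (SE 0.101). The brain glycogen phosphorylase Pygb rose by 4.24 (SE 0.066), from 56.2 to 63.8 CPM to 1092 to 1181 CPM.

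Lysosomal genes rose in 21 of 24 tested and fell in 2 (median 1.59), against 47.7% and 36.4% of all genes. The cathepsins Ctsl, Ctsb and Ctsd rose by 2.73, 2.43 and 2.08, and Ctsb went from 131 to 147 CPM to 712 to 762 CPM. Psap, the precursor of the saposins that help to degrade sphingolipids, rose by 2.08 (SE 0.079). The falls were small, at -0.20 for acid ceramidase Asah1 and -0.16 for beta-galactosidase Glb1 (adjusted p = 0.0478). The Glb1 call was lost when any library other than NSC replicate 2 was left out (adjusted p of 0.0561 to 0.144).

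Metallothionein and antioxidant genes rose in 14 of 16 tested and fell in 1 (median 1.94). The metal-binding genes Mt2 and Mt1 rose by 5.44 (SE 0.146) and 4.65 (SE 0.126), with Mt2 going from 12.3 to 16.7 CPM to 616 to 694 CPM. Gsta4, a glutathione transferase for lipid aldehydes, rose by 3.86 (SE 0.113), and the extracellular glutathione peroxidase Gpx3 fell by 1.84 (SE 0.084). In the ATF4 and serine synthesis list 7 rose and 8 fell of 16 tested, against 47.7% and 36.4% of all genes. The median was -0.06, and 0.01 after quantile normalization. Mthfd2, a mitochondrial folate enzyme, fell by 3.74 (SE 0.091), from 54.4 to 62.5 CPM to 2.92 to 3.67 CPM, and asparagine synthetase Asns by 2.42 (SE 0.073). The stress factors Cebpb, Atf3 and Ddit3 rose by 2.34, 1.51 and 1.16.

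Transcripts of the mitochondrial genome were uneven. Of 12 tested, 7 rose and 1 fell (median 0.45), against 47.7% and 36.4% of all genes. After quantile normalization 2 rose and 4 fell, and the median was -0.00. The complex I subunit mt-Nd5 rose by 1.58 (SE 0.095), from 1472, 1568 and 1653 CPM to 4548, 5146 and 4368 CPM, and mt-Nd3 fell by 0.80 (SE 0.201). Clock genes rose in 11 and fell in 2 of 16 tested (median 0.47), against 47.7% and 36.4% of all genes. The clock output factor Dbp rose by 3.46 (SE 0.099), from 5.40 to 6.89 CPM to 77.0 to 78.6 CPM, while the repressor Per2 fell by 0.62 (SE 0.117). The hour of collection was not given in the labels.

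Markers of other cell types also changed, in both directions. The myelin list rose in 10 of 11 tested genes and fell in 1 (median 2.47), against 47.7% and 36.4% of all genes. The summed level of its 15 genes was 81.9 to 92.1 CPM in NSC and 479 to 614 CPM in Astrocyte. Mbp, myelin basic protein, rose by 3.84 (SE 0.144), from 1.30 to 2.09 CPM to 47.0, 37.4 and 30.0 CPM. Replicate 1 was the highest Astrocyte library. Gpr17, a receptor of committed oligodendrocyte precursors, rose by 5.30 (SE 0.136), from 5.86 to 7.08 CPM to 272 to 316 CPM.

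The precursor list rose in 8 and fell in 4 of 12 tested genes (median 1.24), against 47.7% and 36.4% of all genes. The summed level of the list went from 1874 to 2006 CPM in NSC to 930 to 1080 CPM in Astrocyte. The lineage factors Olig1 and Olig2, also used by dividing progenitors, were its highest members in NSC. Olig2 had 704, 706 and 788 CPM in NSC and 110, 98.0 and 105 CPM in Astrocyte (fell by 2.80, SE 0.080), and Olig1 fell by 2.10 (SE 0.069). Sox10, the factor of committed oligodendroglia, rose by 2.65 (SE 0.123), from 2.25 to 3.32 CPM to 20.2 to 26.1 CPM.

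Of 14 tested young neuron genes, 8 rose and 4 fell (median 0.52), against 47.7% and 36.4% of all genes, and the summed level was 459 to 471 CPM in NSC and 577 to 655 CPM in Astrocyte. Dcx, doublecortin of migrating neuroblasts, rose by 5.60 (SE 0.159), from 1.33 to 2.02 CPM to 113, 120 and 141 CPM. Tubb3, neuronal tubulin, was at 3.51 to 4.48 CPM in NSC and varied in Astrocyte, at 30.1, 36.9 and 56.4 CPM (3.06, SE 0.173). All 10 tested ventral GABAergic lineage genes rose (median 1.74), among them Dlx1 (3.27, SE 0.133), from 3.63 to 3.96 CPM to 40.9, 40.9 and 54.5 CPM, and Sp9 (2.60, SE 0.139). Their summed level was 54.7 to 56.3 CPM in NSC and 165 to 206 CPM in Astrocyte, and Lhx6 was at 0 in all 6 libraries. Of the 12 dorsal glutamatergic genes, 10 were too low to be tested.

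Cilia genes of ependymal cells rose in 8 of 9 tested (median 2.20), against 47.7% of all genes. Their summed level was 28.1 to 31.3 CPM in NSC and 293 to 311 CPM in Astrocyte. Foxj1, the master regulator of motile cilia, had 16.4, 17.9 and 18.9 CPM in NSC and 213, 224 and 231 CPM in Astrocyte (3.58, SE 0.089, adjusted p = 2.68e-13). The axonemal dynein gene Dnahc5 rose by 4.25 (SE 0.084), from 0 to 0.050 CPM to 17.1 to 19.6 CPM. The radial spoke gene Rsph1 rose by 3.21 (SE 0.120), and Hydin, a protein of the ciliary central pair, was not called (-0.02, adjusted p = 0.885) but was called lower after quantile normalization (-0.72).

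Endothelial and mesenchymal markers stayed low apart from single genes. The 10 endothelial markers summed to 3.56 to 3.76 CPM in NSC and 8.15 to 10.3 CPM in Astrocyte, where Kdr, a receptor of vascular endothelial growth factor, was the highest. Tie1 was at 0 in all 6 libraries. The 12 mesenchymal and mural markers summed to 2.66 to 3.28 CPM and 43.9 to 44.9 CPM. Pdgfrb, a receptor also found outside mural cells, made up most of the Astrocyte sum, at 0.30, 0.24 and 0.25 CPM in NSC and 42.4, 41.6 and 41.7 CPM in Astrocyte (5.09, SE 0.095). The collagen gene Col1a1 was at 0.23 to 0.35 CPM in NSC and 0.020 to 0.14 CPM in Astrocyte, and Twist2 was at 0 in all 6 libraries. The part of oligodendroglial, neuronal, ciliated or mural cells in the changes of the other lists was not tested.

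Direct tests against the other media show where the Astrocyte cultures differed at the same day. At least 2-fold differences were called for 1210 genes against Neuron (9.31% of those tested), 852 higher and 358 lower in Astrocyte, and for 999 genes against Oligodendrocyte (7.69%), 455 higher and 544 lower. With a pseudocount of 5 these counts were 596 and 584.

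The 5 genes named above both other media were chosen by their gap to the nearer medium, and C3 was among them. Its mean was 75.9 ± 11.6 CPM (SD, n = 3) in Astrocyte. In Neuron the C3 mean was 1.32 ± 0.163 CPM (SD, n = 3), and Oligodendrocyte had 8.61 ± 0.361 CPM (SD, n = 2). The Astrocyte excess was 5.05 over Neuron (adjusted p = 4.46e-12) and 2.99 over Oligodendrocyte (adjusted p = 6.76e-10). The other 4 were the potassium channel subunit Kcns1 (3.16 and 2.75), Lect1, known as chondromodulin (2.46 and 3.24), the transcriptional corepressor Ripply1 (2.74 and 3.44) and Igfbpl1, an insulin-like growth factor binding protein relative (2.44 and 2.46).

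Myelin genes were among those farthest below both media. Mbp was at 38.1 ± 8.52 CPM (SD, n = 3) in Astrocyte. Its Neuron mean was 495 ± 34.4 CPM (SD, n = 3), and Oligodendrocyte had 594 ± 86.2 CPM (SD, n = 2), giving Astrocyte log2 differences of -3.69 and -3.94. Cldn11, a tight junction protein of myelin (-2.69 and -2.73), and Mag, myelin-associated glycoprotein (-2.79 and -2.53), were also lower, with the transcription factor gene Nfe2l3 (-2.63 and -2.89). Mbp, Cldn11 and Mag in every Astrocyte library lay above every NSC library. Their place below the other media follows from the choice by the gap to the nearer medium.

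Leading astrocyte genes differed in how they stood against the other media. Gfap was higher in Astrocyte than in Neuron by 1.52 (adjusted p = 2.95e-08) and than in Oligodendrocyte by 4.74 (adjusted p = 1.82e-11). Aqp4 was higher by 0.95 and 4.10. Apoe gave differences of 0.17 from Neuron (adjusted p = 0.191) and 1.63 from Oligodendrocyte (adjusted p = 1.76e-07). Slc6a11, which fell against NSC, was lower than in Neuron by a log2 difference of -2.23 and than in Oligodendrocyte by -1.22.

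The mitosis list had a median difference of 0.26 from Neuron and 0.09 from Oligodendrocyte, against 0.11 and -0.04 for all genes tested. Ccnd1 was not called against Neuron (-0.03, adjusted p = 0.834) and was lower than in Oligodendrocyte (-1.21, adjusted p = 1.61e-06). The cilia list lay above Neuron by a median of 1.95 and above Oligodendrocyte by 0.89. Foxj1 averaged 223 ± 8.99 CPM (SD, n = 3) in Astrocyte. Its mean was 45.7 ± 6.68 CPM (SD, n = 3) in Neuron, and Oligodendrocyte had 133 ± 3.10 CPM (SD, n = 2) (differences 2.27 and 0.74).

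**Figure D4:**
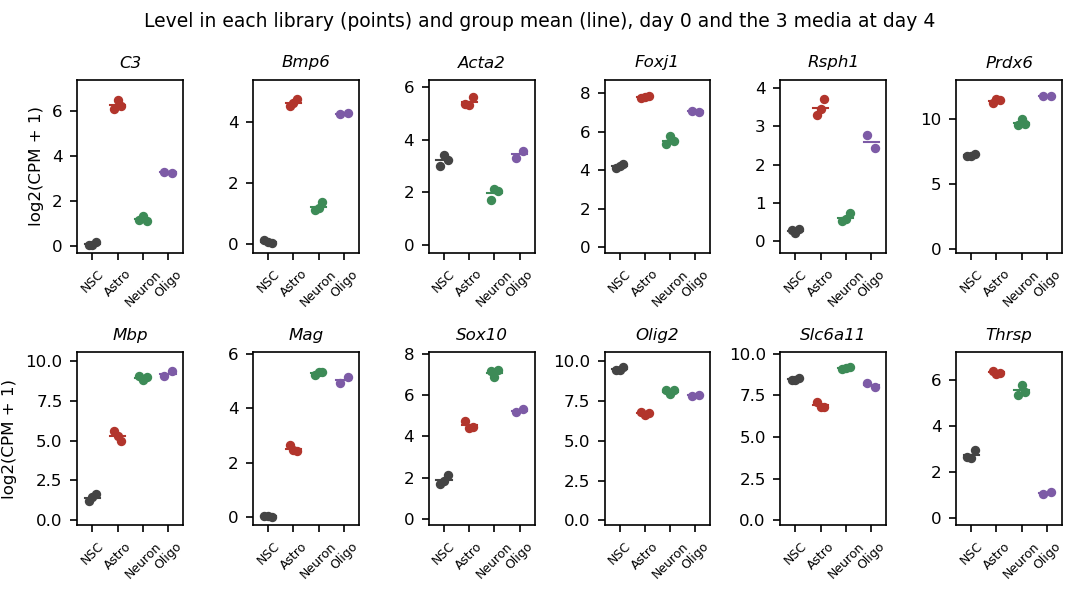
Level of 12 named genes in each library of NSC (3), Astrocyte (3), Neuron (3) and Oligodendrocyte (2), on the log2(CPM + 1) scale (y axis). C3, Acta2, Foxj1, Rsph1 and Thrsp are highest in Astrocyte, while Mbp and Mag lie between NSC and the other media and Olig2 is lowest in Astrocyte.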

How the data were processed

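RNA was measured in 11 libraries, 6 of them (3 NSC, 3 Astrocyte) in the main comparison, and groups follow the labels. Per the labels' protocols, libraries were made with a stranded mRNA kit and read on an Illumina HiSeq. Per the submitters' processing notes, bcl2fastq 1.8.4, TopHat2 2.0.8, HTSeq 0.6.1, edgeR 3.2.4, R 3.0.0, HOMER and build NCBIM37 were used, with no roles given. The authors deposited CPM values with 2 decimals, and gene positions are in mm9. Whether counting used the strand, and how reads shared by overlapping genes or near-identical copies were treated, is not given in the sources used here. The listed genes held 74.95% to 76.94% of the CPM scale in NSC and 79.72% to 80.01% in Astrocyte. Depth was estimated from the steps between low values. In NSC and Astrocyte 100.0% of low values lay within 0.0051 CPM of a step, and 24.0% to 33.4% within 0.1 of a whole read. Rounding to 2 decimals limits the second share, so it cannot show whether the values are whole counts. No count model was used.

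Genes passing the filter of the opening were tested on log2(CPM + 1) with limma 3.58.1 in R 4.3.3. The fit had 1 mean per group over all 11 libraries, a trend of variance with level, 7 residual degrees of freedom and 5.89 prior ones. Tests were two-sided with BH adjustment over 12997 genes, and called means an adjusted p under 0.05. The script was tested on simulated data. The members and lists were chosen with earlier results of these data known. Named genes were the 10 largest rises and falls (at least 10 CPM in either group, no overlap), the 5 nuclear genes that gained or lost most CPM, the 5 farthest above or below the nearer of both other media, 5 flat genes, the given markers, and up to 4 rising and 3 falling members of a list. Members named as not called, the mitosis genes with promoter sequence, markers at low level and those behind a range were named after their values were seen. Values of 3 genes that meet this rule are not reported here. Sox1, Map2 and Mcidas were not analysed here, and Hmgcs1 is listed at 0. Alternatives were other scalings, pseudocounts, filters and fits, and left-out libraries.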

Additional observations from a re-analysis of the deposited data

Results flagged for a closer look

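Among the 12997 genes, 16 changed by at least 2-fold in opposite directions, against the same NSC libraries, in Astrocyte and in another medium. This choice fixes a large difference between the media, so the log2 differences are given as descriptions, and all comparisons with NSC share its 3 libraries.

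Against Neuron, 8 genes rose in Astrocyte and fell in Neuron. The largest difference was in 1500015O10Rik (augurin, a secreted protein), at 5.40: it averaged 4.55 CPM in NSC, 56.9 CPM in Astrocyte and 0.347 CPM in Neuron. Acta2, smooth muscle actin, differed by 3.46 (8.36, 42.0 and 2.94 CPM in NSC, Astrocyte and Neuron). The laminin receptor chain Itga7 differed by 2.73, Ildr2 by 2.71 and the homeobox gene Prrx2 by 2.58. The organic anion transporter Slco3a1 differed by 2.53, the guanylate-binding protein Gbp3 by 2.50 and the mitochondrial dicarboxylate carrier Slc25a10 by 2.26.

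Against Oligodendrocyte, 5 genes rose in Astrocyte and fell there. Thrsp, a lipogenic protein named for its response to thyroid hormone, differed by 5.22, with 5.72 CPM in NSC, 79.0 CPM in Astrocyte and 1.15 CPM in Oligodendrocyte. The retinoid-binding Rlbp1 differed by 2.85, the glutamate carrier Slc25a18 by 2.70, the exchange factor Net1 by 2.51 and the cytokine inhibitor Socs2 by 2.42. Going the other way, the netrin receptor Unc5b differed by -3.36, adenosine deaminase Ada by -3.06 and the lipoprotein receptor Vldlr by -2.37. Unc5b averaged 10.2 CPM in NSC, 4.21 CPM in Astrocyte and 52.4 CPM in Oligodendrocyte.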

How the results depend on the processing

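The Glb1 call (-0.16) was also lost with the replicate block (adjusted p = 0.0566), without the filter (0.0515) and without the variance trend (0.0556). Between Astrocyte and NSC, the count of called genes ran from 9344 (mean of at least 5 CPM) to 13080 (no filter), and that of 2-fold calls from 3001 (pseudocount 5) to 5143 (pseudocount 0.1). Leaving out 1 NSC or Astrocyte library gave 10541 to 10701 called and 4489 to 4525 2-fold genes. Between media it gave 1209 to 1277 (Neuron) and 986 to 1020 (Oligodendrocyte) 2-fold genes. No single Neuron or Oligodendrocyte library was left out, so dependence on those was not tested. With pseudocount 5 the counts between media moved to 596 and 584, since a larger pseudocount shrinks changes of low genes. Deviations of each library from its group mean, gene by gene, were correlated between Astrocyte and NSC replicates. Same-numbered replicates gave 0.094, 0.17 and 0.395. Astrocyte replicate 1 correlated best with NSC replicate 2 (0.278), while Astrocyte replicates 2 and 3 correlated best with the NSC replicate of the same number. The numbers were not taken as pairs in the main fit. With the replicate block 10927 genes were called, with 995 2-fold genes against Oligodendrocyte. Leaving out both replicate 3 libraries, chosen after seeing the data, ended 8 gene calls.

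Of 590 gene results, 68 changed call under some alternative. Quantile normalization changed the sign or brought the value to 0 for 16: Mycn -0.06, mt-Co1 0.00, P2ry12 -0.16, Bambi -0.64, Fbln5 -0.09, Amigo2 -0.30, Bst2 -0.09, Fhl2 -0.15, Fosb -0.25, Lama2 -0.16, mt-Nd2 -0.28, mt-Cytb -0.00, mt-Co2 -0.32, Sod3 -0.28, Rbfox3 -0.47 and Bcl11b -0.32. Of these, Bambi, Amigo2, mt-Nd2, mt-Co2, Rbfox3 and Bcl11b were called lower there, and the other 10 were not called. Vim, not among the 16, kept its sign but lost its call there (0.00 after rounding, limma BH-adjusted p = 0.978). The cause was not tested. Levels near 0.05 CPM rest on few reads, since 3 reads were worth 0.045 to 0.052 CPM.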
